A study of Sus scrofa with 4 samples.

Results

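The EGF family is a set of secreted and membrane-anchored growth factors with their receptor tyrosine kinases. The 9 genes described here were chosen by symbol from the deposited count files: the ligands AREG, EREG, HBEGF, TGFA, BTC and NRG1, and the receptors EGFR, ERBB2 and ERBB3. They are 9 of 35670 genes listed. RNA came from cultured porcine fetal fibroblasts (PFFs), labelled as skin cells, and all 4 libraries were made from serum-starved cells. The 2 control libraries have the genotype WT, and the 2 others are labelled BRG1-overexpressed, BRG1 being the ATPase subunit, encoded by SMARCA4, of a complex that moves nucleosomes. The titles of both groups carry pTK-642, a name that the labels do not explain, so that it is not known whether controls carry a vector. Ages, and whether the libraries of a group came from separate cultures, clones or fetuses, are not given in the sources used here. P-values therefore measure only the spread between these libraries, which may be technical. The study asked how raised BRG1 in nuclear donor cells acts on epigenetic marks, open chromatin and cloned embryos, and the comparison below asks how this growth factor system differed between the groups.

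The ligands are made as transmembrane precursors, and metalloproteases of the ADAM family, above all ADAM17, release the active factor from the cell surface. AREG, EREG, HBEGF, TGFA and BTC bind EGFR, EREG, HBEGF and BTC also bind ERBB4, and neuregulins such as NRG1 bind ERBB3 and ERBB4. Ligand binding makes the receptors pair, with ERBB2, which has no known ligand, as a favoured partner, and signals run through RAS and ERK and through PI3 kinase and AKT. In skin, fibroblasts and keratinocytes exchange such ligands during growth and wound repair.

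Reads assigned to genes summed to between 34486400 and 38126860 per library. SMARCA4 was counted at 5406 and 5734 reads in controls 1 and 2 and at 6255 and 6119 in libraries 1 and 2 labelled BRG1. Its log2 difference was -0.04 ± 0.11 (SE; adjusted p = 0.765 from edgeR's quasi-likelihood fit, adjusted by Benjamini-Hochberg as is every p below). These counts do not check the label, so a gene that rose or fell did so in "the libraries labelled BRG1". All 11 fibroblast markers with a row, among them COL1A1, PDGFRA and DCN, had at least 15949 reads in every library, and 7 of the 11 rose, against 21.0% of all genes tested. Of the markers of other cells, KRT5, KRT8, KRT15 and GRHL2 (epithelium), TEK (endothelium), PTPRC (leukocytes), MYOD1 and PAX7 (muscle) were at 0 reads in all libraries. Other markers on these lists had reads: PECAM1, an adhesion molecule of endothelium, rose (87, 104, 247 and 264 reads), while VWF (82, 37, 28 and 27), CD68 (45, 77, 96 and 106) and DES (17, 10, 36 and 12) did not pass. PECAM1 was at 2.49 and 3.24 CPM in controls and at 6.30 and 7.05 CPM in the other group. Of the remaining endothelial markers, CLDN5 (39, 25, 46 and 45 reads) did not pass. CDH5 (1, 0, 0 and 0) and KDR (2, 0, 0 and 0) were not tested. Summed levels ran from 5.17 to 6.03 CPM in controls and 8.18 to 8.98 CPM in the other group for endothelial markers, from 1.54 to 2.96 and 3.16 to 3.58 CPM for immune markers, and from 0.31 to 0.49 and 0.32 to 1.05 CPM for muscle markers. The part of such cells in the results was not tested. Of all reads, 6.11% and 7.34% fell in no annotated gene in the controls, and 10.3% and 10.5% in the libraries labelled BRG1, and the part of that gap in the results was not tested. The controls stood further apart from each other than the other pair, with a chi-square per degree of freedom over genes of 38.3 against 5.33.

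Of the 9 genes, 7 had enough reads to be tested, and the 4 ligands among them were all lower in the libraries labelled BRG1: NRG1 by 3.71-fold, EREG by 3.29-fold, AREG by 2.72-fold and HBEGF by 1.87-fold. Of the 3 receptors ERBB2 rose by 1.36-fold, while EGFR and ERBB3 did not pass an adjusted p of 0.05. The call of 5 of 7 stands beside 44.6% of all 14617 genes tested. The 4 lower and 1 higher stand beside 23.6% of all genes lower and 21.0% higher. Falls of at least 2-fold occurred in 3 of the 7, AREG, EREG and NRG1, against 6.27% of all genes. The groups did not overlap in 6 of the 7, against 73.2% of all genes. The median log2 fold change of the 7 was -0.90, and that of all genes tested was 0.02. Members were chosen with earlier results of these data known, so these comparisons with all genes do not test the family. Scaled by total reads without TMM, all genes had a median of 0.24, with 4820 higher and 2139 lower in place of 3068 and 3444. On that scaling the values were -1.49 for EREG, -1.22 for AREG, -1.67 for NRG1, -0.68 for HBEGF, -0.04 for EGFR and 0.67 for ERBB2, with the same calls. In these bulk samples fewer cells that make a transcript and less RNA per cell cannot be told apart.

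**Figure D1:**
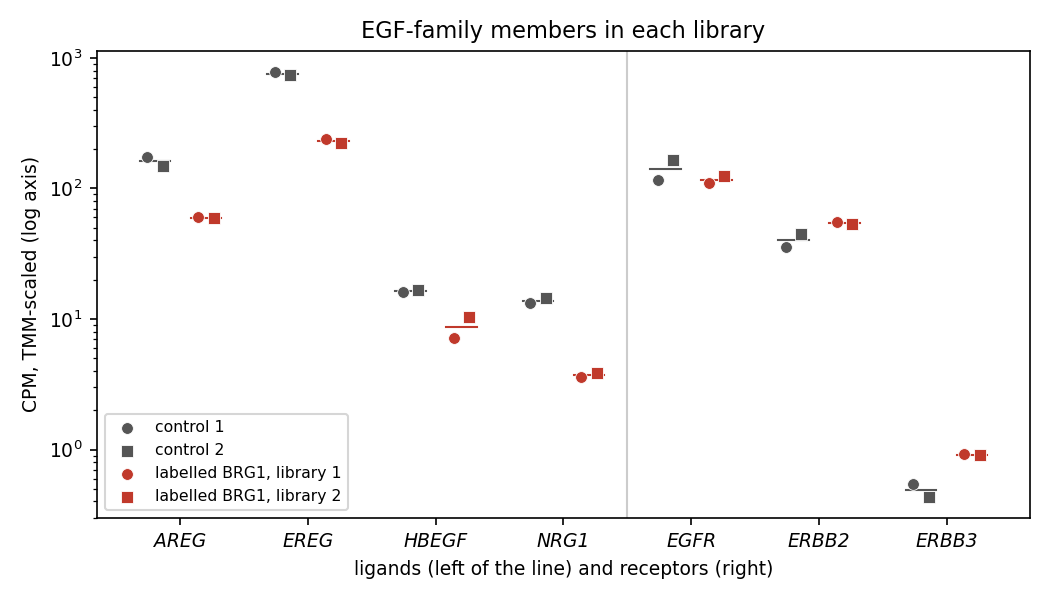
Scaled read counts (CPM, log axis) of the 7 tested members in each of 4 libraries; circles are library 1 and squares library 2 of a group, grey for controls and red for the libraries labelled BRG1, and lines are group means. AREG, EREG, HBEGF and NRG1 lie lower in both libraries labelled BRG1, ERBB2 lies higher, and the EGFR values of the groups overlap. TGFA, at 0 reads, and BTC, at 0 to 7 reads, are not drawn.

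EREG encodes epiregulin, a ligand that activates EGFR and ERBB4 and that inflammatory signals induce in fibroblasts (ENSSSCG00000038185; Sscrofa11.1 chromosome 8, 70351316 to 70372530). It was counted at 27318 and 23723 reads in controls 1 and 2, and at 9350 and 8339 in libraries 1 and 2 labelled BRG1. Scaled by library size and TMM factors, these are 780 and 739 CPM in controls against 238 and 223 CPM. The lowest control was more than the highest library labelled BRG1, and the libraries of a group lay within 1.07-fold of each other. The mean went from 760 ± 29.4 to 231 ± 11.0 CPM (SD, n = 2). The log2 fold change was -1.72 ± 0.11 (SE; 95% interval -1.95 to -1.49; adjusted p = 1.35e-08, edgeR), and 2.51% of all genes tested had one as low. Under the 14 alternatives of the processing it lay between -1.78 and -1.49 and passed in each.

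AREG encodes amphiregulin, a heparin-binding ligand of EGFR (ENSSSCG00000008963; chromosome 8, 70417935 to 70428106). Its levels were 176 and 149 CPM in controls 1 and 2, from 6150 and 4792 reads. In the libraries labelled BRG1 they were 60.2 and 59.3 CPM, from 2363 and 2218 reads. The libraries labelled BRG1 were thus nearly equal and both far below the controls, which differed by 1.18-fold. The mean went from 162 ± 18.7 to 59.8 ± 0.70 CPM (SD, n = 2), a log2 fold change of -1.44 ± 0.11 (SE; 95% interval -1.68 to -1.21; adjusted p = 8.29e-08, edgeR). It too passed under all 14 alternatives, from -1.57 to -1.22.

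NRG1 encodes neuregulin 1, the ligand of ERBB3 and ERBB4 through which nerve axons speak to Schwann cells (ENSSSCG00000015839; chromosome 15, 52625550 to 53688003). It was counted at 466 and 462 reads in controls and at 141 and 145 in the libraries labelled BRG1. On the scaled level these are 13.3 and 14.4 CPM against 3.60 and 3.87 CPM. Each pair agreed within 1.08-fold, and the groups lay far apart. The log2 fold change of -1.89 ± 0.18 (SE; 95% interval -2.28 to -1.50; adjusted p = 1.10e-06, edgeR) was the lowest among the 7 members, although its interval overlaps those of EREG and AREG. NRG1 spans 1062 kb, and the 10% of tested genes with the longest spans had a median log2 fold change of 0.29. After a correction for gene span, which removes each library's trend with the length of genes on the genome, the value for NRG1 was -2.40.

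Because NRG1 and ERBB3 are known from Schwann cells and melanocytes, the markers of these cells stand beside it. Their summed level was 15.3 and 15.7 CPM in controls and 19.1 and 17.95 CPM in the libraries labelled BRG1, over 9 of 10 markers with a row. NGFR, the low-affinity neurotrophin receptor, fell from 229 and 209 reads to 72 and 50. MITF, the melanocyte regulator, which other cells also express, rose from 273 and 246 reads to 663 and 619. SOX10, which defines both cell types, had 4, 0, 2 and 1 reads. The part of such cells in the fall of NRG1 was not tested.

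HBEGF encodes heparin-binding EGF-like growth factor, which activates EGFR and ERBB4 (ENSSSCG00000014362; chromosome 2, 142102455 to 142115192). Control levels were 16.1 and 16.6 CPM, from 565 and 532 reads. In the libraries labelled BRG1 they were 7.22 and 10.3 CPM, from 283 and 385 reads. The groups did not overlap, but here the libraries labelled BRG1 differed by 1.43-fold, more than for any other tested member. The log2 fold change was -0.90 ± 0.18 (SE; 95% interval -1.28 to -0.52; adjusted p = 0.000797, edgeR). Leaving out library 1 labelled BRG1 gave -0.67 (adjusted p = 0.0201) and leaving out library 2 gave -1.18 (adjusted p = 2.22e-05), so that 1 library decides much of the size and neither decides the call.

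TGFA and BTC were at or near absence. TGFA, transforming growth factor alpha (ENSSSCG00000008326; chromosome 3, 71948232 to 72054257), had 0 reads in all 4 libraries. A 95% limit set on the upper side only allows up to 3 reads in each, or 0.0765 to 0.0934 CPM. BTC, betacellulin (ENSSSCG00000008965; chromosome 8, 70645721 to 70697538), had 5, 0, 7 and 3 reads. The exact 95% Poisson interval of the highest, with limits on both sides, was 2.81 to 14.4 reads. It overlaps that of the lowest, 0 to 3.69 reads, whose upper limit therefore differs from that given for TGFA. Both intervals and limits cover counting error only. Without a filter on low counts BTC had a log2 fold change of 0.78 ± 2.08 (SE; adjusted p = 0.801), and its direction was not detectable at this depth.

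EGFR, the receptor shared by AREG, EREG, HBEGF, TGFA and BTC (ENSSSCG00000022126; chromosome 9, 139302410 to 139474632), was at 116 and 165 CPM in controls 1 and 2, from 4050 and 5312 reads. In the libraries labelled BRG1 it was at 110 and 124 CPM, from 4324 and 4634 reads. The groups overlapped, and the controls differed from each other by 1.43-fold. The log2 fold change was -0.26 ± 0.14 (SE; 95% interval -0.56 to 0.03; adjusted p = 0.139, edgeR), which spans 0.68-fold to 1.02-fold. The answer depends on the control used: the value was -0.51 without control 1 (adjusted p = 2.36e-14) and -0.000109 without control 2 (adjusted p = 0.999). EGFR also passed as lower with no filter on low counts (-0.30; adjusted p = 0.0272) and after the correction for gene span (-0.56; adjusted p = 0.000901).

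ERBB2, the partner receptor without a ligand of its own (ENSSSCG00000017497; chromosome 12, 22591621 to 22621384), rose. Its control levels were 35.5 and 44.9 CPM, from 1242 and 1442 reads, and those of the libraries labelled BRG1 55.4 and 53.8 CPM, from 2174 and 2012 reads. Both libraries labelled BRG1 lay above both controls, and the gap to control 2 was smaller than the gap between the controls. The log2 fold change was 0.44 ± 0.12 (SE; 95% interval 0.18 to 0.71; adjusted p = 0.00893, edgeR), or 1.13-fold to 1.63-fold. Leaving out either library labelled BRG1 ended the call, at 0.42 without the first (adjusted p = 0.104) and at 0.46 without the other (adjusted p = 0.0616). The value was 0.27 without control 1 and 0.61 without control 2.

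ERBB3, the neuregulin receptor with an impaired kinase (ENSSSCG00000020725; chromosome 5, 21474218 to 21495040), was counted at only 19 and 14 reads in controls and 36 and 34 in the libraries labelled BRG1. These are 0.54 and 0.44 CPM against 0.92 and 0.91 CPM, and the groups did not overlap. The log2 fold change of 0.89 ± 0.62 (SE; 95% interval -0.43 to 2.23; adjusted p = 0.261, edgeR) did not pass, and a change inside that interval was not detectable at this depth. ERBB2 and ERBB3 are also receptors of epithelial cells, whose markers, 11 of 12 with a row, summed to 1.46 and 1.81 CPM in controls and 3.44 and 4.27 CPM in the other group. Of the 2 tested, ITGB4, an integrin of basal cells, rose (33, 37, 124 and 114 reads), and EPCAM fell (14, 20, 3 and 1 reads). CDH1, E-cadherin, had 0 reads in both controls and 2 and 33 in libraries 1 and 2 labelled BRG1. The part of such cells in the receptor levels was not tested.

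**Figure D2:**
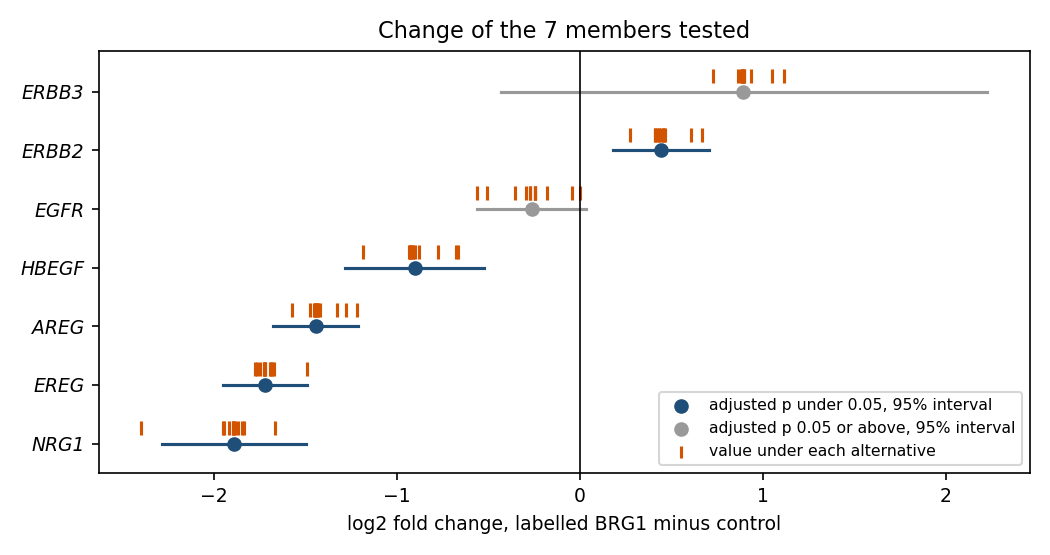
Log2 fold change (libraries labelled BRG1 minus controls) of the 7 tested members with its 95% interval, blue where the adjusted p was under 0.05 and grey where it was not; orange ticks are the values under the alternatives of the fit. The intervals of NRG1, EREG, AREG and HBEGF lie below 0, that of ERBB2 lies above 0, and those of EGFR and ERBB3 include 0.

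Ratios of reads within a library do not depend on how libraries are scaled. A fixed effect of gene length cancels when a ratio is compared between libraries. A trend with gene span that differs between libraries does not cancel, and the ratios below are not corrected for it. With the correction for gene span the log2 fold changes were -1.68 for EREG, -1.28 for AREG and -0.56 for EGFR. Without it they were -1.72, -1.44 and -0.26. The 6 ligands together had 34504 and 29509 reads in controls and 12144 and 11090 in the libraries labelled BRG1, while the 3 receptors had 5311 and 6768 against 6534 and 6680. EREG reads per EGFR read were 6.75 and 4.47 in controls and 2.16 and 1.80 in the libraries labelled BRG1, a mean ratio 2.83-fold lower. AREG reads per EGFR read were 1.52 and 0.90 against 0.55 and 0.48. For both ligands the lowest control ratio exceeded the highest ratio in the other group. NRG1 reads per ERBB2 read went from 0.38 and 0.32 to 0.065 and 0.072, a mean 5.08-fold lower, and did not overlap either. ERBB2 reads per EGFR read were 0.31 and 0.27 in controls and 0.50 and 0.43 in the libraries labelled BRG1. An exact permutation test of 2 libraries against 2 cannot go below p = 0.333, so that test cannot call any of these ratios, and no other test was run on them.

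The ratio of EREG to AREG moved less than those to EGFR. EREG reads per AREG read were 4.44 and 4.95 in controls and 3.96 and 3.76 in the libraries labelled BRG1, a mean 1.22-fold lower, and the groups did not overlap. EREG made up 79.2% and 80.4% of the reads of all 6 ligands in controls and 77.0% and 75.2% in the other group. AREG made up 17.8% and 16.2%, and 19.5% and 20.0%. These are shares of reads, with no correction for transcript length, and do not rank the ligands by molecules.

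EREG, AREG and BTC are neighbours on chromosome 8, with 45.4 kb between EREG and AREG and 218 kb between AREG and BTC in the RefSeq gene table of Sscrofa11.1. EPGN, which encodes epigen, another EGFR ligand, lies on the other side of EREG and had 19, 11, 17 and 29 reads, with a log2 fold change of 0.44 ± 0.70 (SE; adjusted p = 0.645, edgeR). EPGN overlaps MTHFD2L, a gene of mitochondrial folate metabolism, and reads of overlapping genes cannot be told apart without strand. A window of 1000 kb around EREG and BTC, chosen after values were seen, held 17 other tested genes, of which 7 were lower and 2 higher, beside 23.6% lower and 21.0% higher among all genes. Of the 7, 6 encode CXC chemokines: CXCL8, AMCF-II, PPBP and CXCL2 lie on the EPGN side of EREG, and CXCL9 and CXCL10 beyond BTC. CXCL8, a neutrophil attractant, had 676914 and 524668 reads in controls and 126191 and 118280 in the libraries labelled BRG1, a log2 fold change of -2.48 ± 0.14 (SE). MTHFD2L, with -0.20 ± 0.25 (SE; adjusted p = 0.552), did not pass. NAAA, a lysosomal amidase whose gene starts 1222.5 kb from the start of EREG, rose by 2.88 ± 0.22 (SE) on the log2 scale.

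**Figure D3:**
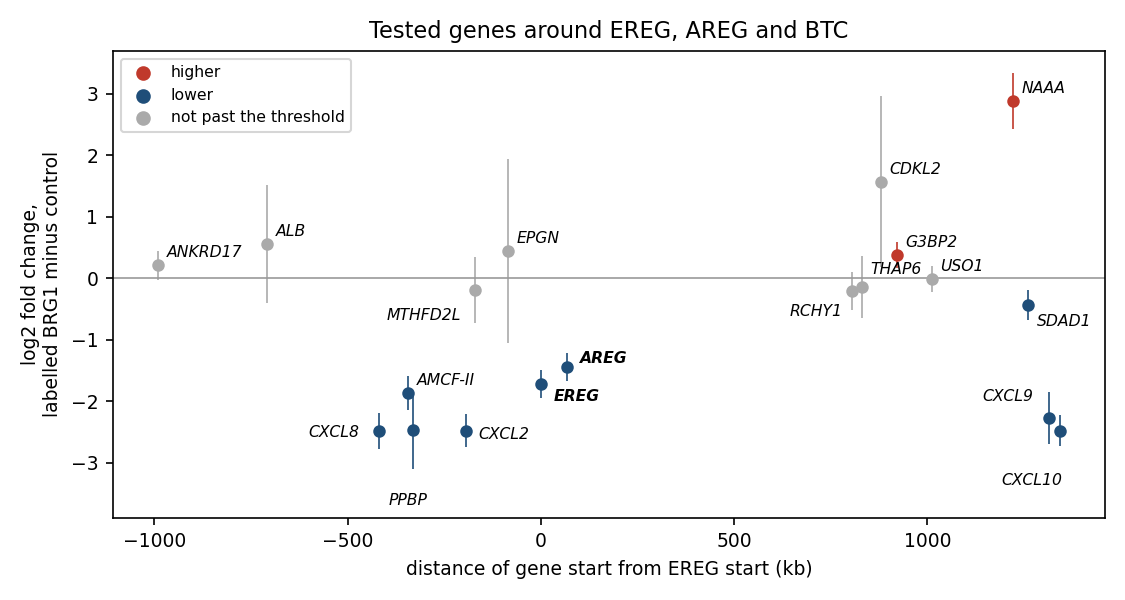
Log2 fold change with its 95% interval of each tested gene within 1000 kb of EREG and BTC, by the distance of its start from the start of EREG in kb; blue is lower, red higher and grey not past an adjusted p of 0.05. EREG and AREG (bold) lie below 0 with 6 CXC chemokine genes, while MTHFD2L and EPGN next to EREG did not pass.

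By root mean square difference of centred log2 CPM over the 4 libraries, the tested genes most like EREG were RPS21, a ribosomal protein (difference 0.020), TNIP3, an inhibitor of NF-kappaB signalling (0.038), TMOD1, which caps actin filaments (0.040), EIF6, a factor of ribosome assembly (0.044), and MIF, a cytokine (0.044). With 4 libraries in 2 groups this pattern is little more than 1 step, and 46 genes lay within 0.1 of EREG. RPS21 was at 465 and 435 CPM in controls and at 142 and 136 CPM in the libraries labelled BRG1. Its steps therefore match those of EREG library by library.

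Of the 6 family genes outside the 9, EGF, EPGN, NRG2, NRG3, NRG4 and ERBB4, 4 had enough reads to be tested and 1 passed. NRG4, a neuregulin that binds ERBB4, rose from 39 and 25 reads to 82 and 87, or from 0.95 ± 0.24 to 2.21 ± 0.17 CPM (SD, n = 2; log2 fold change 1.22 ± 0.43, SE; adjusted p = 0.0323, edgeR). Its direction was thus opposite to that of NRG1. The call was lost without control 2, without either library labelled BRG1 and after the correction for gene span. ERBB4, the receptor that NRG4 needs, had 1 and 2 reads in controls and 12 and 5 in the libraries labelled BRG1, and was not tested. EGF itself had 6 reads in control 2 and 0 in the other libraries.

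Genes of 4 pathway lists stand beside the members. Their counts are to be read against 21.0% of all genes higher and 23.6% lower, or 44.6% in either direction. The shedding list holds genes that act in the release of the ligands and TIMP3, which inhibits it. Of 10 tested, 2 were higher, TIMP3 and ADAM12, and 4 lower, with a median of 0.03 on the log2 scale. ADAM17, the main sheddase of AREG, EREG, HBEGF and TGFA, fell from 79.4 ± 11.9 to 53.0 ± 1.83 CPM (SD, n = 2; log2 fold change -0.58 ± 0.12, SE; adjusted p = 0.000901, edgeR). RHBDF2, an iRhom that carries ADAM17 to the cell surface, fell by 0.91 on the log2 scale (SE 0.16). FRMD8, which stabilizes that complex, fell by 0.38 (SE 0.10). RHBDF1, the other iRhom listed, went from 278 ± 40.2 to 292 ± 3.65 CPM (SD, n = 2). Its log2 fold change of 0.07 ± 0.11 (SE; adjusted p = 0.646, edgeR) did not pass. TIMP3, a matrix-bound inhibitor of ADAM17, rose from 754 ± 49.6 to 1841 ± 34.5 CPM (SD, n = 2; log2 fold change 1.29 ± 0.11, SE). ADAM8 fell by 1.32 (SE 0.18) and ADAM12 rose by 0.52 (SE 0.12), while ADAM10, which releases BTC, had -0.004 ± 0.10 (adjusted p = 0.977). The rises numbered 4 without control 2 and 5 when scaled by total reads without TMM, and the median was -0.0611 without control 1.

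Among 24 tested transducers between the receptors and ERK or AKT, 7 were higher and 8 lower, with a median of 0.05 on the log2 scale. Steps of the RAF and MEK cascade were among the falls. ARAF fell by 0.59 (SE 0.10), MAP2K2 by 0.66 (SE 0.11) and MAPK3 by 0.52 (SE 0.10) on the log2 scale. GRB2, the adaptor that links activated receptors to RAS, fell from 128 ± 14.4 to 78.0 ± 1.74 CPM (SD, n = 2; -0.71 ± 0.11, SE; adjusted p = 7.69e-05, edgeR). PIK3R1, the regulatory subunit of PI3 kinase, rose from 19.5 ± 2.27 to 36.2 ± 1.76 CPM (0.89 ± 0.13, SE; adjusted p = 7.44e-05, edgeR), and GAB1, the docking protein that brings it to EGFR, rose by 0.68 (SE 0.12). BRAF, a kinase that activates MEK, rose by 0.41 ± 0.12 (SE; adjusted p = 0.0105, edgeR) on the log2 scale. The counts depend on single libraries: 2 were higher and 5 lower with library 1 labelled BRG1 left out, and 2 and 4 with library 2 left out. Scaled by total reads without TMM, 12 were higher and 5 lower. The median was -0.0249 without control 1.

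The list named receptor restraint holds genes that restrain the receptors or act in their endocytosis or turnover, and not each of them need lower the receptors. Of 15 tested, 7 were higher and 4 lower (median 0.15). LRIG3, a transmembrane protein of a family that regulates ERBB receptors, rose from 23.1 ± 1.94 to 55.4 ± 2.30 CPM (SD, n = 2; 1.26 ± 0.12, SE; adjusted p = 8.04e-07, edgeR), and LRIG2 by 0.56 (SE 0.15). EPS15, an endocytic adaptor phosphorylated by EGFR, rose from 162 ± 7.76 to 384 ± 9.23 CPM (1.25 ± 0.10, SE), and SOCS4, which targets EGFR for degradation, by 0.73 (SE 0.14). LRIG1 went the other way, with -0.38 ± 0.12 (SE; adjusted p = 0.0205), as did EPN1, an endocytic adaptor, with -0.43 ± 0.10 (SE). ERRFI1, an inhibitor of EGFR that receptor activity induces, had 0.06 ± 0.11 (SE; adjusted p = 0.698). The 4 falls became 0 when either library labelled BRG1 was left out or total reads without TMM set the scale. The rises became 4 without library 2 labelled BRG1 and 3 after the correction for gene span. The median was 0.0367 without control 1 and 0.377 when scaled by total reads without TMM.

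Genes that respond to ERK split into 5 higher and 9 lower of 23 tested, with a median of -0.26. The median was -0.15 without control 2, -0.0972 after the correction for gene span and -0.0325 when scaled by total reads without TMM. With 1 library left out 6 to 13 were lower. The largest fall was that of FOSL1, a subunit of the factor AP-1, from 62.9 ± 1.77 to 21.0 ± 1.61 CPM (SD, n = 2; -1.58 ± 0.12, SE; adjusted p = 6.41e-08, edgeR). PLAUR, the urokinase receptor, fell from 911 ± 10.6 to 339 ± 5.98 CPM (-1.43 ± 0.11, SE), and IER3, an early response gene, from 2086 ± 234 to 786 ± 48.7 CPM (-1.41 ± 0.12, SE). DUSP6, a phosphatase of ERK, rose from 54.2 ± 3.29 to 92.4 ± 5.31 CPM (0.77 ± 0.11, SE; adjusted p = 3.19e-05, edgeR), and so did FOS (0.88 ± 0.15, SE) and CCND1, cyclin D1 (0.90 ± 0.13, SE). The other DUSP, SPRY and SPRED genes listed went both ways. DUSP5 (-1.20 ± 0.18, SE), SPRY2 (-0.66 ± 0.10, SE) and SPRED2 (-0.32 ± 0.11, SE) fell. SPRY1 (0.54 ± 0.11, SE) and SPRED1 (0.42 ± 0.11, SE) rose, while DUSP4 and SPRY4 did not pass. ETV4 and ETV5, ETS factors that follow ERK activity, had -0.18 ± 0.10 (SE; adjusted p = 0.15) and -0.03 ± 0.14 (SE; adjusted p = 0.889).

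**Figure D4:**
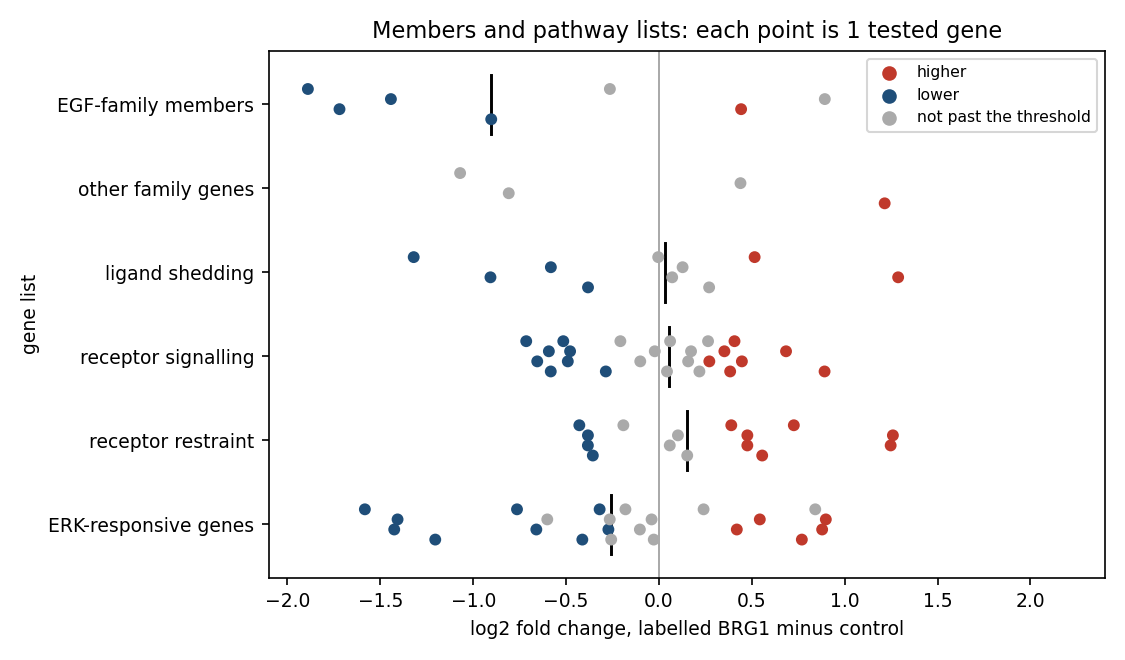
Log2 fold change of each tested gene in the EGF-family members and in 5 pathway lists, red where higher, blue where lower and grey where the adjusted p was 0.05 or above; black lines are medians, drawn for lists of more than 4 genes. The median of the members, -0.90, lies left of those of the lists, which run from -0.26 to 0.15.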

How the data were processed

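RNA-seq of 4 libraries was analysed, 2 per group by the sample titles. The authors deposited whole-number read counts per Ensembl gene, without normalization. The tools named per the submitters' processing notes are STAR, FastQC, Cufflinks, SAMtools, edgeR and DESeq2, with the build Sscrofa11.1. Counter, strand setting and annotation release are not given in the sources used here. Library sizes leave out rows that name no gene; reads on more than 1 gene made up 1.90% to 2.33% and reads aligned to more than 1 place 1.42% to 1.80%. Symbols came from the files (17508 genes) and the gene name table (223 more); coordinates came by symbol from RefSeq (all 9 members matched).

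Fits used R 4.3.3 and edgeR 4.0.16: filterByExpr (minimum count 10, minimum total 15), TMM scaling, the quasi-likelihood F test on group and Benjamini-Hochberg adjustment over 14617 genes, threshold 0.05. Log2 fold changes use a prior count of 0.125; SE is the unshrunk value divided by the square root of F. Alternatives were other scalings and filters, DESeq2 1.42.0, limma-voom (limma 3.58.1), a replicate block, stricter thresholds, each library left out, and removal of each library's loess trend (span 0.5) with gene span over the 77.4% of tested genes with one (93.2% of those with a symbol).

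Members and lists were chosen with earlier results of these data known. Named genes are all 9 members, of each list up to 4 genes past the threshold with the smallest adjusted p, and the 5 genes nearest in pattern to the member with the smallest adjusted p. Other genes of the lists were named after their values were seen: SOX10, ADAM10, ADAM12, RHBDF1, FRMD8, MAPK3, GAB1, BRAF, LRIG1, LRIG2, ERRFI1, FOS, CCND1, DUSP4, DUSP5, SPRY1, SPRY2, SPRY4, SPRED1, SPRED2, ETV4, ETV5, EGF, EPGN, ERBB4, CDH1, VWF, CLDN5, CDH5, KDR, CD68, DES and the markers at 0 reads, with the neighbours of EREG. Some genes of the lists are not reported here.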

Additional observations from a re-analysis of the deposited data

How the results depend on the processing

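AREG, EREG, HBEGF and NRG1 kept their fall past adjusted p = 0.05 in all 14 alternatives; only a further demand for 2-fold removed HBEGF (-0.90), and with it ERBB2 (0.44), leaving 0 members higher. With 1 library left out, members higher numbered 0 to 1, and ERBB2 ran from 0.27 to 0.61. EGFR ran from -0.51 to -0.000109 with 1 library left out, and was -0.30 without a filter on low counts and -0.56 after the correction for gene span. The cause was not tested.

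Over all genes, scaling by library size alone gave 4820 higher and 2139 lower, and 2-fold gave 1267 and 917. With 1 library left out they numbered 1908 to 3673 and 2177 to 4321. Library size alone gave 5 higher for ligand shedding, 12 higher and 5 lower for receptor signalling, and 0 lower for receptor restraint. A threshold of 0.01 left 0 other family genes higher, 3 receptor signalling genes higher and 2 receptor restraint genes lower. Demanding 2-fold left, higher and lower, 1 and 1 for shedding, 0 and 0 for signalling, 2 and 0 for restraint, and 0 and 4 for ERK-responsive genes. After the correction for gene span, 0 other family genes, 4 signalling, 3 restraint and 3 ERK-responsive genes were higher, and the medians reversed to -0.15 for shedding and -0.0895 for signalling. With 1 library left out, higher genes numbered 0 to 1 for other family genes, 2 to 4 for shedding, 2 to 8 for signalling and 4 to 9 for restraint. Lower genes numbered 4 to 9 for signalling and 0 to 5 for restraint. Medians ran from -0.0611 to 0.113 for shedding and from -0.0249 to 0.107 for signalling.

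The labels do not say whether equal library numbers mark a shared culture or day. The correlation of deviations over genes was -0.04, which cannot decide this, since the control pair differed far more than the other pair. The fit with a replicate block gave 3189 genes higher and 3505 lower, EGFR at -0.24 (adjusted p = 0.0743), and changed no member's call. With 1 library of a group left, that library is assumed to vary like the other group. TGFA, BTC and ERBB3 are limited by depth.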
